A study of Saccharomyces cerevisiae with 91 samples.

Results

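Nucleosome-depleted regions (NDRs) that lie within 20 kb of a budding yeast centromere were examined for the Micro-C read pairs that span them. An NDR counted when its position was 20000 bp or less from the centromere of its chromosome, with rounded centromere positions for all 16 chromosomes. This held for 368 of 6719 NDRs, which is 15 to 29 NDRs a centromere (median 24). They lay 69 to 19977 bp from the centromere (median 9119.5 bp).

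The yeast centromere is a short sequence that binds a single specialised nucleosome carrying the histone H3 variant Cse4, on which the kinetochore is built. Cohesin is loaded there and accumulates in the flanking pericentromere, and the centromeres of all chromosomes gather near the spindle pole body. An NDR is a gap between nucleosomes, usually at a gene's promoter, and a read pair that spans it joins chromatin on its 2 sides.

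Micro-C ligates crosslinked chromatin cut by micrococcal nuclease (MNase), so that a read pair reports 2 nucleosomes that lay close together. The deposited count table gives the read pairs spanning each NDR in each library, and 49 replicates of 21 groups were set side by side after the repeat libraries of a replicate were summed. Levels are given as CPM, the reads of an NDR per 1e+06 pairs in the library, with TMM factors applied. The libraries held 84223 to 2299974 such pairs, so that 1 read pair was worth 0.391 to 13.7 CPM. The 2 members just inside the limit, at 19975 and 19977 bp, averaged 138 and 94.9 CPM in wild type, and the 2 NDRs just outside, at 20161 and 20255 bp, averaged 78.8 and 74.1 CPM.

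The treated cells were BY4741 given 1.5 mM diamide, a thiol oxidant, for 30 min (2 replicates) or 3 µg/mL thiolutin, an inhibitor of transcription, for 45 min (2 replicates), both at 30 °C. The replicated mutants were ssu72-2 at 32 °C (3 replicates), rtt109d (3), med1d (3), rnh201d (2), rpd3d (2), top1d (2) and the histone H4 strains H4d4-14 (2) and H4R23A (2), at 30 °C. Groups with 1 column each were H4K16Q, H4Q93E, H4-WT (an S288C strain with an H3/H4 plasmid), the W303 strain and wild type at 32 °C. The temperature-sensitive strains rgr1-100, rsc8-21, scc2-4 and sth1-2 and a wild type held at 37 °C for 90 min also had 1 column each, although the labels list repeat libraries for them. The titles call the first of these rgr1-100 and its strain label rgr1-97, so its allele is uncertain. Crosslinked BY4741 grown at 30 °C was also digested with 1X and 0.25X MNase (4 fragment fractions at each dose), and control libraries of BY4741 at 30 °C were made without crosslinking and without ligation (1 column each). The wild type at 30 °C (WT) was BY4741 and had 16 replicates, with which all groups at 30 and 32 °C share their comparison. The H4 strains were thus compared with BY4741 and not with H4-WT (1 column). Any difference in strain background and the H4 change cannot be told apart there.

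In the libraries labelled rtt109d, med1d and rnh201d, the short-fragment signal of the deleted gene was 0.977%, 5.95% and 6.01% of that in WT. In the libraries labelled rpd3d and top1d the signal of RPD3 and TOP1 was 55.7% and 65.4% of WT, so these 2 groups are named here by their labels only. WT replicate 17 (146987 pairs) stood apart: its NDRs near the centromere of chromosome I lay 0.64 above the WT mean on the log2 scale, against -0.39 to 0.23 in the other 15 replicates.

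In WT, the closer an NDR lay to the centromere, the fewer read pairs spanned it. Over the 16 replicates the 34 NDRs at 0 to 2 kb had a median of 56.1 ± 6.2 CPM (SD, n = 16), the 59 at 2 to 5 kb 68.3 ± 6.8, the 108 at 5 to 10 kb 85.1 ± 4.8 and the 167 at 10 to 20 kb 96.0 ± 3.4. Each of these 4 classes lay below the next in 16 of 16 replicates. The level then stayed flat: the 333 NDRs at 20 to 40 kb had 96.7 ± 4.0 CPM and the 681 at 40 to 80 kb 94.6 ± 1.8, and the 10 to 20 kb class was below the 20 to 40 kb class in 7 of 16 replicates. The 5337 NDRs over 80 kb away had 83.4 ± 2.7 CPM, less than those at 10 to 20 kb in 16 of 16 replicates.

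**Figure D1:**
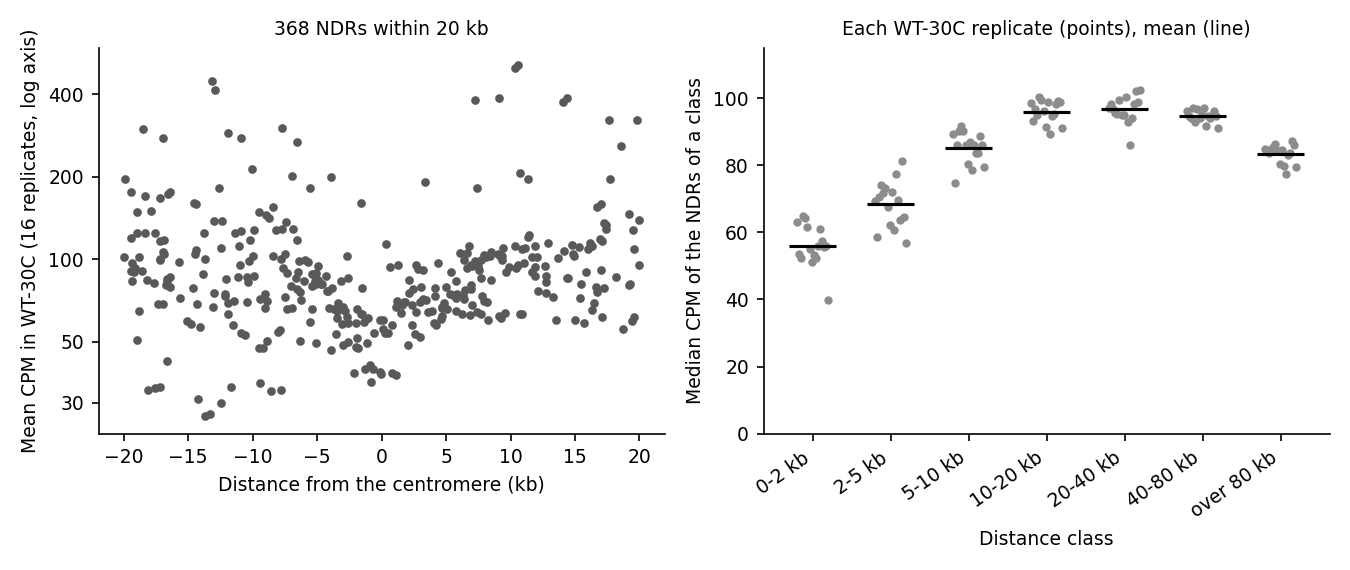
Left, the mean CPM of each of the 368 NDRs over 16 WT replicates (log axis) against its distance from the centromere in kb. Right, the median CPM of each distance class in every WT replicate (points) with the mean over replicates (lines). Levels are lowest at the centromere on both sides, and class means climb to 96.0 CPM at 10 to 20 kb from 56.1 CPM at 0 to 2 kb.

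Expressed as 1 number, the NDRs within 5 kb stood at -0.58 ± 0.09 (SD, n = 16) against those at 10 to 20 kb on the log2 scale, with replicates between -0.74 and -0.46. For the 368 NDRs as 1 set, the comparison with the rest of the genome depended on the measure and the limit. Their median was 82.5 ± 4.5 CPM, against 84.8 ± 2.9 CPM for the 6351 other NDRs, a log2 difference of -0.04 ± 0.06 that was negative in 11 of 16 replicates. With means in place of medians the difference was -0.57, negative in 16 of 16 replicates. Means take in extreme values: the highest WT level was 48761 CPM among the other NDRs and 510 CPM among members. The quartiles were close, at 64.3 and 113 CPM for the others and 64.9 and 106 CPM for members. With medians it was -0.20 for a limit of 10 kb, 0.0577 for 30 kb and 0.0365 for NDRs at gene starts. No p was computed over the set. Of the 34 NDRs within 2 kb, 23 (67.6%) lay below the lower quartile of all 6719 NDRs, 64.3 CPM, and 2 lay above the upper quartile, 113 CPM. Of the 167 at 10 to 20 kb, 26 (15.6%) lay below the lower quartile and 55 (32.9%) above the upper.

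The same order held for promoters and for gene bodies. Of the 368 NDRs, 197 (53.5%) lay at a gene's start codon, 106 (28.8%) inside a gene and 65 (17.7%) between genes, against 53.4%, 26.9% and 19.7% of the other NDRs. Those at a gene start had WT medians of 59.7 ± 7.6, 66.1 ± 6.0, 80.8 ± 6.2 and 91.3 ± 4.3 CPM (SD, n = 16) in the 4 classes outward from the centromere. Those inside a gene had 61.7 ± 16.0, 74.7 ± 10.6, 99.0 ± 8.9 and 130 ± 5 CPM, from 7, 17, 36 and 46 NDRs. Both gene classes therefore climbed with distance. The NDRs between genes did so too, with 46.3, 63.7, 76.7 and 81.4 CPM. A tRNA gene lay within 500 bp of 20 members (5.43%), against 2.54% of the other NDRs, and of none within 2 kb. The spacing to the nearest other NDR was a median of 924 bp among members and 984 bp among the others, and 832 bp in the 0 to 2 kb class. For 22 members the nearest NDR was under 300 bp away, so neighbours share read pairs. NDRs further apart can do so too, so calls at neighbouring NDRs are not independent counts.

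Both sides of the centromere showed it. To the left, at lower coordinates, the 4 classes had 50.4 ± 5.7, 66.6 ± 5.8, 84.8 ± 6.8 and 93.1 ± 5.3 CPM (SD, n = 16), and to the right 65.3 ± 8.2, 69.5 ± 8.2, 85.2 ± 8.0 and 99.2 ± 4.1 CPM. The innermost class was the one in which the sides differed most.

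Chromosome by chromosome, the median within 5 kb was below that at 10 to 20 kb at 15 of 16 centromeres. The widest gaps were on chromosome II, with 44.3 CPM within 5 kb and 267 CPM at 10 to 20 kb, and chromosome I, with 93.5 and 249 CPM, where the outer NDRs include a Ty retrotransposon. Chromosome III had 49.7 and 125 CPM and chromosome VIII 50.4 and 131 CPM, and in these 4 the near value was lower in 15 or 16 of 16 WT replicates. The narrowest gaps were on chromosomes VI (104 and 120 CPM) and X (66.4 and 76.7 CPM), where it was lower in 14. Chromosome VII ran the other way, with 76.8 CPM within 5 kb and 38.4 CPM at 10 to 20 kb, and its near value was lower in 2 of 16 replicates. Only 4 to 8 NDRs lay within 5 kb of any 1 centromere.

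The NDR nearest to each centromere lay 69 to 1874 bp away. These 16 NDRs had a median of 54.8 CPM in WT (range of means 38.3 to 114), and 14 of them were below the median of all NDRs, 85.2 CPM. The closest 4 lay within 200 bp. On chromosome III, at position 114331, 69 bp to the left of the centromere, the lowest, median and highest WT replicates had 0, 44.1 and 50.1 CPM. On chromosome VIII (105513, 87 bp to the left, nearest gene RPL14B) they had 11.4, 40.5 and 57.4 CPM. Both stayed below the median of all NDRs in every WT replicate.

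On chromosome XII (151011, 111 bp to the right) the 3 values were 0, 57.1 and 99.2 CPM, and on chromosome IX (355832, 132 bp to the right, nearest gene SGN1) 11.4, 65.4 and 92.9 CPM. Next outward came the start of AVT1, a vacuolar amino acid transporter (X, 265 bp), with 36.6, 53.9 and 79.6 CPM. The start of MET14, an enzyme of sulfate assimilation (XI, 561 bp), had 30.1, 52.5 and 86.0 CPM. That of ECM15 (II, 701 bp) had 29.8, 38.4 and 55.9 CPM.

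The WT means at these 3 starts were 54.0, 53.6 and 39.9 CPM, all below the median of all NDRs. Means between 38.6 and 60.8 CPM were also found near CIT1 (XIV), MNN1 (V), RMD1 (IV), YPT7 (XIII) and IZH2 (XV), and EFM5 (VII) and HAT1/SNF8 (XVI) had 67.2 and 78.8 CPM. The exceptions were 2. The start of LOC1, which encodes a nuclear RNA-binding protein (VI, 380 bp), had 80.2, 111 and 157 CPM, and that of NUP60, a nuclear pore protein (I, 627 bp), had 68.8, 90.7 and 139 CPM.

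The highest members were Ty elements and the lowest a stretch beside PMA1. The 5 highest lay inside YAR009C on chromosome I (389 ± 168, 498 ± 185 and 510 ± 183 CPM; SD, n = 16) and YBL005W-B on chromosome II (412 ± 117 and 446 ± 109 CPM), which are open reading frames of Ty retrotransposons. Near-identical copies of these lie elsewhere in the genome, so their counts are uncertain. Of the 5 lowest, 4 lay side by side on chromosome VII, 12.5 to 14.3 kb left of the centromere: at BRP1/YGL007C-A (26.8 ± 10.2 CPM), BRP1 (27.2 ± 9.9), YGL006W-A (29.9 ± 11.0) and the start of PMA1, the plasma membrane proton pump (30.9 ± 12.4). The fifth was the start of RPL14A, a ribosomal protein gene (XI, 8.54 kb), with 33.1 ± 21.9 CPM.

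The authors' list of chromatin boundaries comes from pooled WT of the same series, so it is not independent of the counts above. Of the members, 124 (33.7%) lay within 200 bp of a boundary in the authors' joint list, against 35.0% of the other NDRs. By class the share was 26.5% at 0 to 2 kb, 35.6% at 2 to 5 kb, 29.6% at 5 to 10 kb and 37.1% at 10 to 20 kb, so it did not climb steadily. The authors' strength score of those boundaries had a median of 3.42 at 0 to 2 kb, 3.99 at 2 to 5 kb, 4.06 at 5 to 10 kb and 4.29 at 10 to 20 kb. For boundaries at the other NDRs it was 4.18. The 4 medians rest on only 9, 21, 32 and 62 NDRs with a boundary. The scores are pooled over WT, so they carry no replicate error.

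The deposited gene compaction score, a log2 value pooled per group, was also lowest next to centromeres. It comes from the same series, so it is not independent of the counts above. Among genes over 750 bp, those with their midpoint within 5 kb had a median of -0.12 in WT (56 genes), against 0.17 for the 189 genes at 20 to 40 kb. Within 20 kb the median was -0.03 (210 genes), against 0.06 for the 3599 other genes. In the deposited columns of all 17 groups the genes within 5 kb scored below those at 20 to 40 kb, with differences of -0.36 to -0.15. Against the genes at 10 to 20 kb they were lower in 17 of 17 groups too, by a smaller step: the difference was -0.24 in diamide and -0.07 in thiolutin, the lowest and highest of the 17, and -0.14 in WT. These columns have no replicates.

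The low level near centromeres was seen in every group. The median within 5 kb was below that at 10 to 20 kb in 49 of 49 replicates. Across them the 0 to 2 kb class ranged between 39.8 CPM in WT replicate 13 and 72.5 CPM in thiolutin replicate 1, and the 10 to 20 kb class between 86.2 and 101 CPM. On the log2 scale the ratio of the 2 medians was -0.29 and -0.39 after diamide, -0.33 and -0.46 after thiolutin and -0.57, -0.39 and -0.43 in ssu72-2, against -0.74 to -0.46 in the 16 WT replicates. Both diamide replicates, 1 of 2 thiolutin replicates and 2 of 3 ssu72-2 replicates thus lay above the highest WT replicate. So did W303 (-0.41), replicate 2 of the top1d libraries (-0.43) and med1d replicate 2 (-0.45). At 37 °C, the sth1-2 (-0.33) and scc2-4 (-0.40) columns did so too.

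In rtt109d the ratio was -0.78, -0.62 and -0.75, so that 2 of 3 replicates lay below the lowest WT replicate. In med1d it was -0.81, -0.45 and -0.54 and in H4d4-14 -0.54 and -1.0. The lowest of these come from libraries in which 1 read pair was worth 13.7 CPM (med1d replicate 1) and 8.35 CPM (H4d4-14 replicate 2). The remaining groups at 30 and 32 °C lay between -0.68 and -0.41. At 37 °C, sth1-2 had -0.33, scc2-4 -0.40, rgr1-100 -0.52, rsc8-21 -0.62 and wild type -0.56. No group difference in this ratio was tested, since it is a score over the chosen NDRs.

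**Figure D2:**
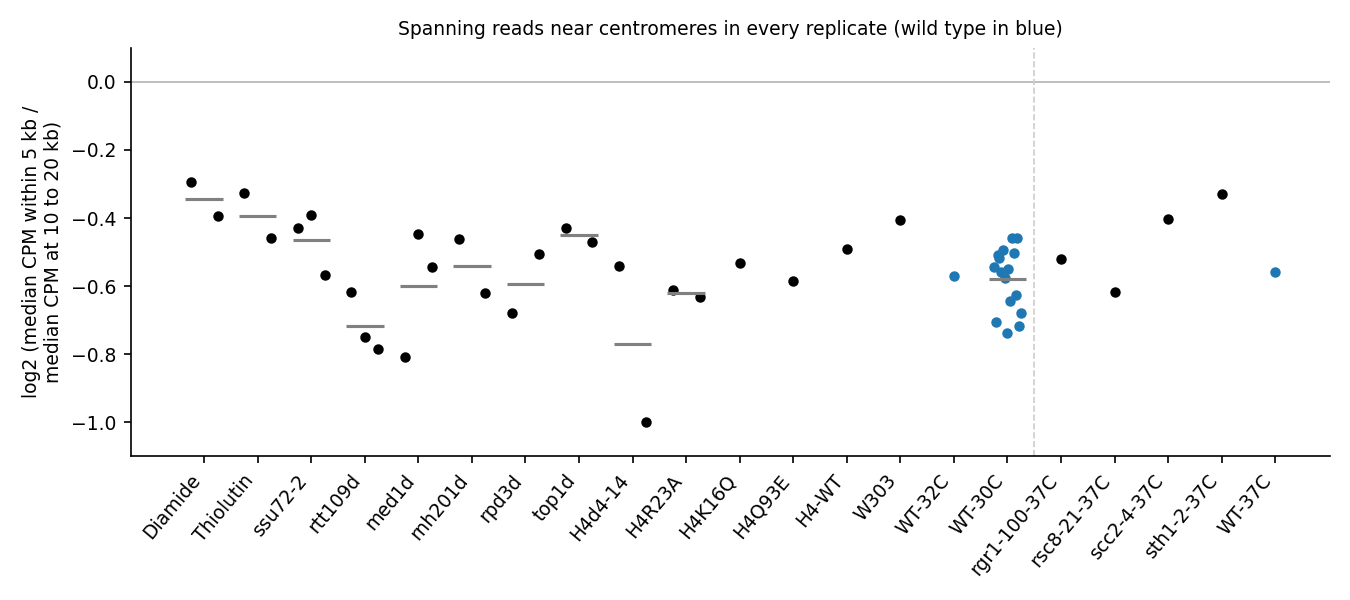
Log2 ratio of the median CPM within 5 kb to that at 10 to 20 kb in each replicate (points), with the group mean where there are at least 2 replicates (bars), wild type in blue and groups at 37 °C to the right of the dashed line. All 49 points lie below 0, and diamide sits highest among the replicated groups.

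Each of 10 replicated groups was tested against WT in 1 edgeR fit over all 6719 NDRs (quasi-likelihood test, Benjamini-Hochberg adjusted p under 0.05). Members were called in 4 of them: 10 of 368 after diamide, 17 after thiolutin, 25 in ssu72-2 and 3 in rtt109d. These are 2.72%, 4.62%, 6.79% and 0.815% of the members, against 4.76%, 3.59%, 4.29% and 0.804% of all NDRs. Except in ssu72-2, where 1 chromosome accounts for most calls, the members' share is near or below that of the genome. With the pairs listed in the authors' distance tables as library size in place of TMM, none of these members was called in any of the 4 groups. Of all NDRs, that setting called 0 for diamide, thiolutin and rtt109d and 3 (0.0446%) for ssu72-2, so the loss was not particular to members.

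After diamide, 10 members rose and none fell (background 2.99% rising and 1.77% falling), all of them in 2 places: 7 beside PMA1 and LEU1 on chromosome VII and 3 beside RPL14A and SFT1 on chromosome XI. PMA1 encodes the plasma membrane proton pump, LEU1 an enzyme of leucine synthesis, RPL14A a large-subunit ribosomal protein and SFT1 a Golgi SNARE. The NDR 3′ of PMA1 at position 479806, 17.2 kb from the centromere, had 93.4 and 94.9 CPM after diamide, against 25.8, 35.0 and 41.8 CPM in the lowest, median and highest WT replicates. The groups did not overlap, and edgeR gave a log2 fold change of 1.46 (SE 0.18, adjusted p = 3.79e-08). Its neighbours at 479429 and 480332 had 95.8 and 89.6 CPM and 95.8 and 112 CPM after diamide, against WT medians of 33.6 and 44.3 CPM (log2 fold changes 1.43 and 1.32). At the start of LEU1 there were 74.7 and 72.2 CPM, against 20.9, 33.8 and 44.4 CPM in WT (1.15). These NDRs, picked because they were called higher, were above every WT replicate. Here and for the called members named below, the share without overlap over all NDRs was not computed.

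The 3 called NDRs upstream of PMA1, where WT was lowest, reached 74.7 and 56.1 CPM at the PMA1 start, 58.4 and 41.4 CPM at BRP1 and 51.4 and 45.4 CPM at BRP1/YGL007C-A after diamide, against WT medians of 27.5, 24.6 and 24.5 CPM. Their log2 fold changes were 1.21, 0.95 and 0.94, and their values overlapped the highest WT replicate. Inside RPL14A there were 86.4 and 58.8 CPM after diamide, against 0, 31.3 and 103 CPM in WT (log2 fold change 1.09, edgeR adjusted p = 0.00419). The highest WT value there is from replicate 17, and without it the highest was 45.4 CPM. The SFT1 start (0.99) and the RPL14A start (0.92) showed the same overlap with replicate 17. Without diamide replicate 1, 4 members and 87 of all NDRs were called, and without replicate 2, 5 members and 58 of all NDRs, against 10 and 320 with both. With the number that column names of several groups share taken as a block, 6 members and 142 of all NDRs were called.

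After thiolutin, 12 members rose and 5 fell (background 2.43% and 1.16%). The PMA1 and LEU1 stretch supplied 8 of the 12 rises, and these neighbours can share read pairs. At BRP1 and BRP1/YGL007C-A the counts were the same, 38 and 15 pairs in the 2 thiolutin replicates. The comparisons of diamide and thiolutin share the 16 WT replicates. The NDR at 479429 had 120 and 78.0 CPM after thiolutin, against 25.8, 33.6 and 46.4 CPM in WT, with a log2 fold change of 1.63 (SE 0.19, edgeR adjusted p = 2.51e-08). The NDR at 479806 had 114 and 78.0 CPM (1.56), that inside PMA1 at 480332 123 and 78.0 CPM (1.36) and that at the LEU1 start 111 and 69.8 CPM (1.55). On the promoter side the PMA1 start had 60.8 and 82.1 CPM (1.30), BRP1 and BRP1/YGL007C-A 59.2 and 61.6 CPM each (1.26 and 1.27) and YGL006W-A 54.5 and 65.7 CPM (1.03). YGL006W-A overlapped WT, and in the others of this stretch both thiolutin replicates exceeded every WT replicate. All were picked because they were called higher, and the share without overlap over all NDRs was not computed.

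**Figure D3:**
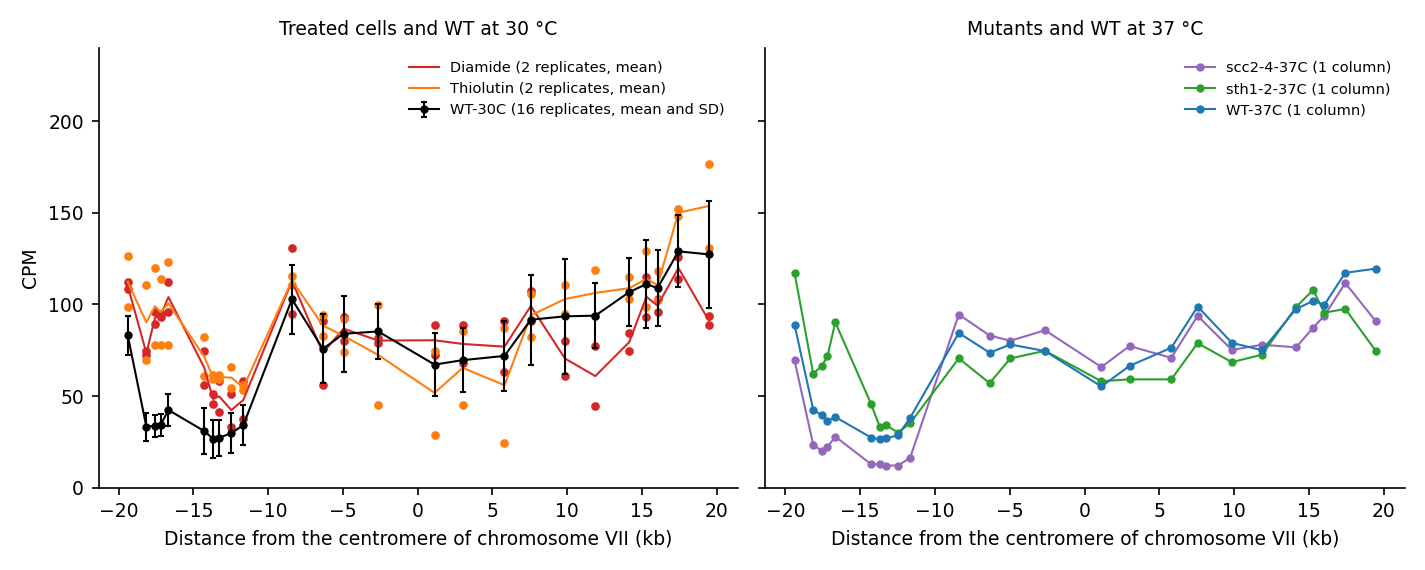
CPM of the NDRs of chromosome VII within 20 kb against distance from its centromere in kb. Left, diamide and thiolutin (points, replicates; lines, means of 2) and WT at 30 °C (mean and SD of 16 replicates). Right, scc2-4, sth1-2 and wild type at 37 °C (1 column each). The WT trough beside PMA1, 12.5 to 18.1 kb left of the centromere, was shallower after diamide and thiolutin and deeper in the scc2-4 column.

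Thiolutin also raised NDRs on chromosome VI, next to the centromere. Inside NIC96, a nuclear pore gene 2.86 kb from it, there were 150 and 152 CPM, against 45.5, 98.0 and 112 CPM in WT (log2 fold change 0.66, edgeR adjusted p = 0.0164), with no overlap. Beside RPN11, a proteasome deubiquitinase, there were 111 and 115 CPM, against 30.1, 63.8 and 112 CPM (0.78). At the LOC1 start, 380 bp from the centromere, the replicates differed widely, at 136 and 308 CPM, against 80.2, 111 and 157 CPM in WT (0.86, adjusted p = 0.0265). Without replicate 2 its adjusted p was 0.824. Inside RPL14A there were 76.4 and 49.3 CPM, against a WT median of 31.3 CPM (1.04). With the shared number of the column names as a block, none of these NDRs was called. The edgeR adjusted p was then 0.156 at NIC96, 0.378 beside RPN11, 0.0503 at LOC1 and 0.795 inside RPL14A.

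The 5 members that fell after thiolutin lay at SSA1 (2 NDRs), LST8/SIS1, STE20 and SHU1. Inside SSA1, an Hsp70 chaperone gene 11.0 kb from the centromere of chromosome I, there were 26.5 and 61.6 CPM, against 86.0, 106 and 198 CPM in WT, a log2 fold change of -1.52 (SE 0.26, edgeR adjusted p = 7.92e-05). A second NDR inside SSA1 had 26.5 and 49.3 CPM, against 65.3, 81.6 and 129 CPM (-1.31). Neither overlapped WT. At LST8 and SIS1, a TOR complex subunit and an Hsp40 chaperone, there were 35.8 and 28.7 CPM, against 34.1, 68.6 and 129 CPM (-1.02). STE20, a signalling kinase, and SHU1, a DNA repair gene next to it on chromosome VIII, had log2 fold changes of -0.86 and -0.85. Without thiolutin replicate 1, 19 members and 437 of all NDRs were called, and only 5 of the 17 were among the 19. Without replicate 2, 10 members and 72 of all NDRs were called, 9 of them among the 17. With the shared number of the column names as a block, 6 members and 47 of all NDRs were called, against 17 and 241 without it. At 479429 and 479806, 2 of the 17 passed in both leave-one-out fits.

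By distance, the median log2 fold change of the 34 NDRs within 2 kb was 0.22 after diamide, against -0.00406 over all NDRs, and 0.33 after thiolutin, against 0.00846. None of the 34 was called after diamide and 1, LOC1, after thiolutin. The same medians computed for single replicates against the WT mean were 0.18 and 0.22 for diamide and 0.34 and 0.25 for thiolutin, against -0.22 to 0.14 in the 16 WT replicates. At 2 to 5 kb they were 0.08 and 0.09 for diamide and 0.16 and 0.01 for thiolutin, against -0.18 to 0.14 in WT. The innermost class lay above the WT range in all 4 treated replicates, and the next class in 1 thiolutin replicate. The innermost class was also above that range in rnh201d replicate 1 (0.18), W303 (0.17) and H4K16Q (0.16).

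**Figure D4:**
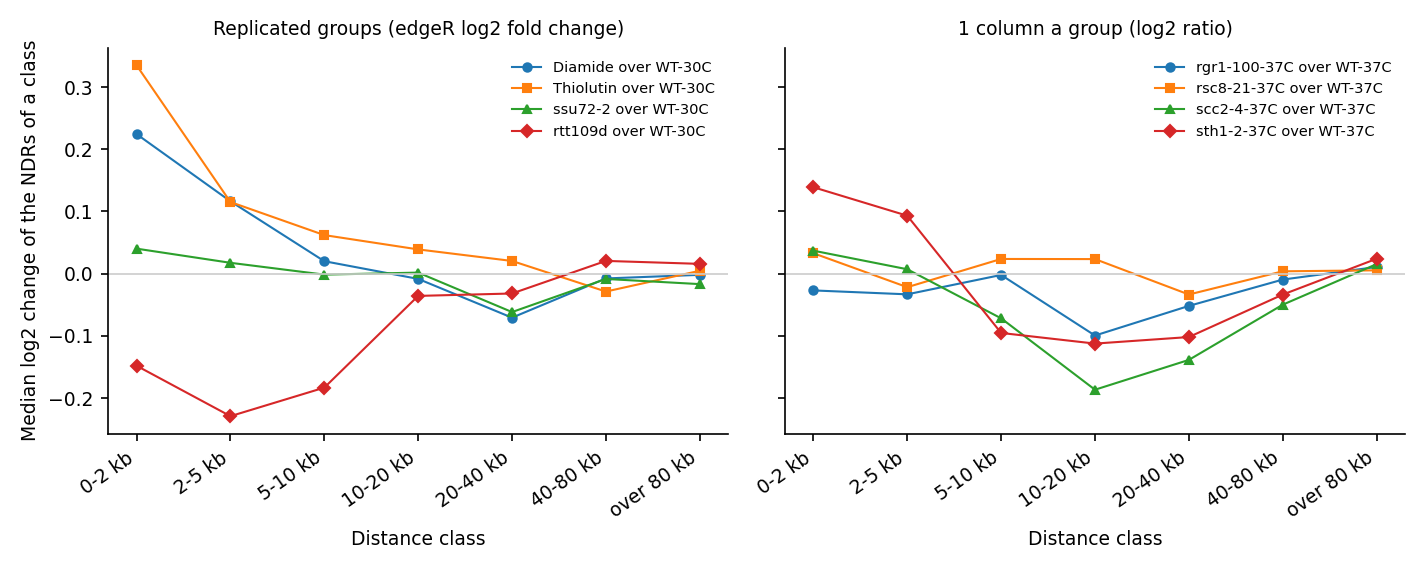
Median log2 change of the NDRs of each distance class, left for diamide, thiolutin, ssu72-2 and rtt109d over WT (edgeR log2 fold changes), right for the 37 °C strains over wild type at 37 °C (1 column each). Diamide and thiolutin are above 0 within 2 kb, at 0.22 and 0.33, rtt109d is below 0 out to 10 kb, and scc2-4 is lowest at 10 to 20 kb.

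In ssu72-2, a temperature-sensitive allele of the phosphatase Ssu72 of the RNA polymerase II tail, 24 members rose and 1 fell (background 3.27% and 1.01%), and 21 of the 24 that rose were on chromosome I. They are 21 of the 24 members of that chromosome, whose median log2 fold change was 1.14. The rise was not particular to the centromere: 72 of the 76 other NDRs of chromosome I were also called higher, with a median of 1.10. The medians of the other 15 chromosomes, over all their NDRs, were between -0.09 and 0.03. In single replicates the chromosome I members lay 1.40, 0.92 and 0.99 above the WT mean, against -0.39 to 0.64 in WT. In the 30 replicates of the other groups they lay between -0.48 and 0.58, and in the 1 column of wild type at 32 °C at -0.23. The ssu72-2 cells were grown at 32 °C and the WT cells at 30 °C. In the test itself allele and temperature thus cannot be told apart. Of all 100 NDRs of chromosome I, 93 were called higher and 0 lower. The number of copies of chromosome I in these cells was not tested.

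**Figure D5:**
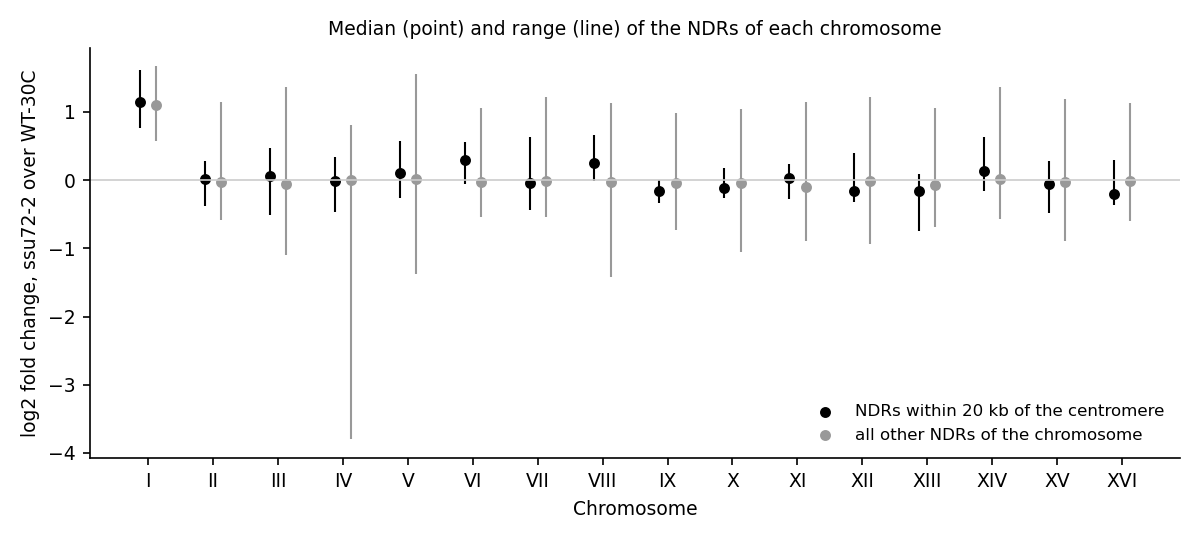
Median (points) and range (lines) of the edgeR log2 fold change of ssu72-2 over WT for the NDRs of each chromosome, those within 20 kb of the centromere in black and all others in grey. Both groups of chromosome I are near 1.1 and the medians of the other chromosomes are near 0.

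The chromosome I members named next rose together with the rest of that chromosome. Those that rose most were inside EFB1, a translation elongation factor gene 9.17 and 8.89 kb from the centromere. They had 182, 107 and 99.8 CPM in ssu72-2, against 30.1, 41.5 and 129 CPM in WT (log2 fold change 1.62, SE 0.18), and 179, 118 and 99.8 CPM, against 32.6, 45.5 and 129 CPM (1.54). The top WT value is again replicate 17, and the next WT values were 58.5 and 68.0 CPM. The start of ERP2, a gene of vesicle transport, had the lowest adjusted p, with 235, 181 and 169 CPM, against 43.0, 78.1 and 102 CPM (1.44, SE 0.14, edgeR adjusted p = 5.45e-12).

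The 3 SSA1 NDRs had log2 fold changes of 1.39, 1.18 and 1.14, and those in and at VPS8, a vacuolar sorting gene, 0.96 to 1.49. Nearest to the centromere, the NUP60 start had 213, 196 and 193 CPM in ssu72-2, against 68.8, 90.7 and 139 CPM in WT (1.09), and the NDR inside TFC3, a subunit of transcription factor TFIIIC, 202, 222 and 175 CPM, against 68.2, 102 and 129 CPM (0.95). These did not overlap WT, but they were picked because they were called. The start of SWD1 and ERP1 had 543, 347 and 402 CPM, against 129, 183 and 273 CPM (1.22). The 3 chromosome I members that were not called lie in the Ty open reading frames YAR009C and YAR010C.

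On the other 15 chromosomes, 3 of 344 members rose and 1 fell in ssu72-2, which is 1.16%, against 2.95% of all 6619 NDRs there. QCR10, a subunit of respiratory complex III (VIII, 2.04 kb), had 81.9, 71.9 and 84.6 CPM, against 11.4, 46.3 and 73.2 CPM (log2 fold change 0.67, edgeR adjusted p = 0.0187). The PMA1 NDRs at 479806 and 479429 had 52.2, 54.5 and 54.4 CPM and 51.1, 50.1 and 54.4 CPM, against WT maxima of 41.8 and 46.4 CPM (0.64 and 0.60). The start of PLB1, a phospholipase (XIII), had 52.2, 78.5 and 60.5 CPM, against 68.8, 102 and 142 CPM (-0.75). All 4 lost the call when replicate 1 was left out. QCR10 and the PMA1 NDRs also lost it with the shared number of the column names as a block.

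In rtt109d, which lacks the acetyltransferase of histone H3 lysine 56, 3 members fell and none rose (background 0.253% and 0.551%). Of these, 2 are at the deleted gene, 3.17 and 4.28 kb from the centromere of chromosome XII. Inside RTT109 there were 15.1, 31.4 and 36.0 CPM, against 68.2, 81.7 and 141 CPM in WT (log2 fold change -1.66, SE 0.26), and at the start of its neighbour DNM1, a mitochondrial fission GTPase, 15.1, 27.5 and 28.8 CPM, against 43.0, 79.0 and 141 CPM (-1.85, SE 0.27, edgeR adjusted p = 9.20e-06). Neither overlapped WT. The third, beside the phospholipase gene PLB2 (XIII, 9.4 kb), had 66.4, 78.5 and 62.5 CPM, against 80.5, 109 and 131 CPM (-0.70, adjusted p = 0.022). It lost the call without any 1 of the 3 replicates.

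The members of rtt109d had a median log2 fold change of -0.12, against 0.01 over all NDRs, and 127 of 368 were above 0. The class medians were -0.15 at 0 to 2 kb, -0.23 at 2 to 5 kb, -0.18 at 5 to 10 kb and -0.04 at 10 to 20 kb. In single replicates the 2 to 5 kb class lay at -0.21, -0.18 and -0.26 against the WT mean, and WT replicates went down to -0.18. This difference is thus at the edge of the WT range, and no test was made of it.

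No member was called in med1d, rnh201d, H4d4-14, H4R23A or the libraries labelled rpd3d and top1d. edgeR called 7 (0.104%), 3 (0.0446%), 2 (0.0298%), 2 (0.0298%), 0 (0%) and 0 (0%) of all NDRs in these 6 groups. At an unadjusted p under 0.05, 47 members (12.8%, against 10.0% of all NDRs) passed in med1d, 8 (2.17%, against 2.40%) in rnh201d and 37 (10.1%, against 10.2%) in H4d4-14. In H4R23A 35 passed (9.51%, against 6.74%), in the rpd3d libraries 29 (7.88%, against 4.84%) and in the top1d libraries 8 (2.17%, against 2.11%). DESeq2 called 1 member (0.272%) in med1d, against 0.208% of all NDRs, and none in the other 5. With the shared number of the column names as a block, 25 members (6.79%) were called in med1d and 21 (5.71%) in H4d4-14, against 6.79% and 7.29% of all NDRs. With the listed pairs as library size 299 members were called in H4d4-14 (81.3%, against 81.1% of all NDRs), all lower. In these last settings the members' shares were near or below those of all NDRs. At an unadjusted p they were higher mainly in med1d, H4R23A and the rpd3d libraries, which was not tested. Members' median log2 fold changes lay between -0.01 and 0.04 in all 6. The lowest edgeR adjusted p of any member was 0.0600 in med1d and 0.29 in H4R23A, the next group.

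At 37 °C each strain had 1 column, so values are given with no test, and folds are log2 ratios of CPM + 0.5. Wild type at 37 °C had no member past 2-fold against the mean of the 16 WT replicates at 30 °C (background 0% higher and 0.0298% lower). Its highest members lay beside HHF1, a histone H4 gene 17.0 kb from the centromere of chromosome II, with 265 and 257 CPM, against 159 and 155 CPM at 30 °C (0.74 and 0.73). The lowest was the start of ECM9 (XI), with 44.0 CPM, against 70.4 CPM (-0.67).

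In scc2-4, a mutant of the cohesin loader Scc2, 6 members were past 2-fold lower and none higher, 1.63% of the members against 0.223% lower (0.0149% higher) over all NDRs. Of the 6, 5 form the stretch upstream of PMA1 on chromosome VII, and these neighbours can share read pairs. YGL006W-A had 12.2 CPM from 17 pairs in scc2-4, against 28.8 CPM from 64 pairs in wild type at 37 °C, a ratio with a 95% counting interval of 0.232 to 0.732, and its second NDR 16.5 CPM, against 38.2 CPM. The 2 BRP1 NDRs had 12.2 and 12.9 CPM, against 27.0 and 26.5 CPM, and the PMA1 start 12.9 CPM, against 27.4 CPM. The sixth, inside YDR010C (IV, 15.5 kb), had 41.5 CPM from 58 pairs, against 92.6 CPM from 206 pairs (log2 ratio -1.15, interval of the ratio 0.329 to 0.603). In rsc8-21 that NDR had 52.5 CPM, against the same wild-type column. Intervals are exact and cover counting error only. With 5 CPM added in place of 0.5, 2 members were past 2-fold in scc2-4 and none in rgr1-100, against 4 and 0 of all NDRs.

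The scc2-4 column was lower mainly away from the centromere itself. Class medians of its log2 ratio were 0.04 at 0 to 2 kb, 0.01 at 2 to 5 kb, -0.07 at 5 to 10 kb, -0.19 at 10 to 20 kb and -0.14 at 20 to 40 kb, against -0.00337 over all NDRs. Its highest members were 3 NDRs within 5 kb of a centromere: inside YLR001C (XII, 67.3 CPM, against 39.1 CPM), near CDC10, a septin gene (III, 78.1 CPM, against 45.4 CPM), and the NDR 69 bp from the centromere of chromosome III (52.3 CPM, against 30.6 CPM). Their log2 ratios were 0.77 to 0.78.

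In sth1-2, a mutant of the ATPase of the RSC chromatin remodeler, 1 member was past 2-fold higher (background 0.253% higher and 0.238% lower): the NDR inside PMA1 at 480332, with 90.3 CPM, against 38.6 CPM in wild type at 37 °C (log2 ratio 1.21, interval of the ratio 1.71 to 3.19). The next were 479806 (71.6 CPM, against 36.4 CPM) and an NDR inside RPL14B 831 bp from the centromere of chromosome VIII (72.7 CPM, against 37.3 CPM). Class medians were 0.14 within 2 kb, 0.09 at 2 to 5 kb, -0.10 at 5 to 10 kb and -0.11 at 10 to 20 kb. The inner classes were thus above 0 and the outer ones below 0 in this 1 column.

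The rsc8-21 column, a mutant of another RSC subunit, had no member past 2-fold (background 0% higher and 0.0595% lower), with members between -0.98 and 0.60. In rgr1-100, a mutant of the Mediator subunit Rgr1, 1 member was past 2-fold lower (background 0% higher and 0.0298% lower). It lies inside ERG6, an enzyme of ergosterol synthesis (XIII, 15.6 kb), with 42.3 CPM, against 86.7 CPM (log2 ratio -1.03, interval of the ratio 0.341 to 0.684), and the 2 NDRs at the ERG6 start followed at -0.91 and -0.86. All 4 strains share the same wild-type column.

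Among the remaining groups with 1 column, set against the mean of the 16 WT replicates, W303 had 3 of 368 members past 2-fold lower (background 0.833%), H4-WT 1 (1.22%), H4K16Q 2 (1.29%), H4Q93E 6 (1.06%) and wild type at 32 °C none (0.506%), and none had a member past 2-fold higher (0% to 0.0298%). In W303, a different laboratory strain, all 3 lie side by side on chromosome VIII, 12.4 to 13.7 kb left of the centromere beside YHL008C, with 53.1, 55.5 and 54.7 CPM, against 138, 138 and 125 CPM in WT. None of the 3 was that low in any WT replicate, but they were picked because they were low.

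The members include the NDRs of HHT1 and HHF1, which encode histones H3 and H4, 16.7 to 18.6 kb from the centromere of chromosome II. The outer one at 256897 had 124 CPM in H4-WT, 115 in H4K16Q, 160 in H4Q93E, 179 and 283 in H4R23A and 283 and 359 in H4d4-14, against 143, 255 and 559 CPM in the lowest, median and highest WT replicates. The highest is replicate 17, and the next was 351 CPM. H4-WT and H4K16Q were below every WT replicate there, and the other H4 strains overlapped WT. In H4Q93E the 6 low members rest on 6 to 10 read pairs each, at PMA1, LEU1 and EFB1.

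The libraries made with 0.25X and 1X MNase also had their lowest class medians next to centromeres, each summed over 4 fragment fractions and scaled to its total. With 1X (536453 pairs) the classes outward from the centromere had medians of 41.0, 48.5, 60.6 and 70.8 CPM, and with 0.25X (1334423 pairs) 56.2, 63.7, 82.1 and 95.2 CPM. At 1X, 15 of 368 members (4.08%) were past 2-fold lower and none higher, near the share of all NDRs (4.26% lower, 0.149% higher), and the median log2 ratio was -0.32 among members and -0.34 over all NDRs. Members that were lower include the start of RCR2 (IV, 22.4 CPM from 12 pairs at 1X, against 67.4 CPM from 90 pairs at 0.25X) and 2 NDRs inside CYR1, the adenylate cyclase gene (X). The highest was the start of TDH2, a glycolytic gene (X, 95.1 CPM, against 53.2 CPM). The fractions differ: within 5 kb and at 10 to 20 kb, the trinucleosome and tetranucleosome fraction at 0.25X had 61.8 and 106 CPM, and the small-fragment fraction at 1X 50.8 CPM in both classes, from 59033 pairs.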

How the data were processed

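The members and the distance classes were chosen with earlier results of these data known. The deposited tables hold, per the file headers, raw counts of pairs across NDRs and of pairs by separation. They also hold a boundary strength score, a gene-wise signal of short fragments and compaction as log2 values, pooled by the authors. Centromere positions are rounded values that came with the choice of members, not an annotation. Per the submitters' processing notes CASAVA 1.8.2, Bowtie2 (no version) and sacCer3 were used. Counting steps are not given in the sources used here. In the NDR table, 10 sample columns that matched no single sample were not used, and same-named columns were summed. The labels do not say whether replicates were separate cultures, so p-values measure only the spread between these samples. Counts of 49 replicates entered 1 edgeR 4.0.16 fit in R 4.3.3 (TMM, filterByExpr, group term, two-sided quasi-likelihood test, common dispersion 0.0297). All 6719 NDRs passed the filter and were tested. The code was tested on simulated data. MNase and control libraries were scaled to their totals without TMM. Comparisons of 1 column a group used log2 ratios of CPM + 0.5 and no test. An NDR was named for a gene that starts within 500 bp downstream or 50 bp upstream, else for the gene it lies in, else for the nearest (RefSeq R64 names). Named NDRs were the nearest to each centromere, the 5 highest and 5 lowest in WT, up to 10 called members a comparison by lowest adjusted p, and the 3 highest and 3 lowest of each comparison of 1 column among those with at least 20 CPM in 1 group; other called members were named after their values were seen. Genes of the compaction table listed at 0 in every column were left out. DESeq2 1.42.0 was an alternative. Column names of several groups share a number whose meaning the labels do not give, so it was tried as a block. No sequence is given, as no genome was used here.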

Additional observations from a re-analysis of the deposited data

How the results depend on the processing

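The low level within 5 kb kept its sign in every WT replicate under 5 alternatives. The 2 others, the filterByExpr filter and leaving out NDRs near chromosome ends, changed none of the NDRs compared. The log2 ratio of -0.58 became -0.76 with means in place of medians and -0.87 for NDRs inside genes. It was -0.52 for NDRs at gene starts, -0.53 without chromosomes I and II and -0.59 without WT replicate 17. The difference between members and other NDRs (-0.04) was -0.57 with means, -0.20 at 10 kb, 0.0577 at 30 kb and 0.0365 for NDRs at gene starts. With the pairs listed in the distance tables as library size, calls among members (and all NDRs) were 0 (0) for diamide, thiolutin and rtt109d. They were 0 (3) for ssu72-2 and 299 (5448) for H4d4-14, where all 299 were lower. DESeq2 and the fit without WT replicate 17 each called 1 member in med1d, against 14 and 16 of all NDRs. Without 1 replicate of the treated or mutant group, or without WT replicate 17, counts among members (and all NDRs) were 4 to 12 (58 to 386) for diamide, 10 to 22 (72 to 437) for thiolutin, 2 to 4 (11 to 69) for rtt109d, 17 to 31 (117 to 405) for ssu72-2, 0 to 1 (0 to 16) for med1d and 0 to 1 (1 to 4) for H4R23A. With the replicate number as a replicate block, members called were 8 (185 of all NDRs) for diamide, 13 (176) for thiolutin, 2 (20) for rtt109d and 27 (197) for ssu72-2. Deviations of samples with the same replicate number correlated at -0.47 to 0.52 (8 of 20 over 0.1). The labels do not say whether these samples share more than a number. With the shared number of the column names as a block, chosen after seeing the data, counts were 6 (142 of all NDRs) for diamide and 6 (47) for thiolutin. They were 25 (456) for med1d, 21 (490) for H4d4-14, 4 (122) for rtt109d and 25 (313) for ssu72-2. Samples with the same shared number correlated at -0.15 to 0.43 (14 of 21 over 0.1). Off chromosome I, 4 members (195 of all NDRs there) were called in ssu72-2. With 5 CPM added, members (and all NDRs) past 2-fold numbered 0 (0) in rgr1-100, 2 (4) in scc2-4 and 7 (192) for the MNase doses. The centromere midpoint from an annotation was not run. The causes were not tested. Groups of 1 to 3 replicates and depths down to 84223 pairs limit single NDRs.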

Other observations

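Without crosslinking (210503 pairs), members had medians of 28.5, 28.5, 52.3 and 52.3 CPM in the 4 classes outward, so the low level near centromeres was also present in that library. Without ligation, 6551 pairs spanned NDRs in all, 103 of them at members, and 305 of 368 members had none.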
